A study of Mus musculus with 11 samples.

Results

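A set of 35 genes of glycolysis and of the cellular response to low oxygen was followed in the mandibular condylar fibrocartilage, the soft tissue that covers the condyle of the lower jaw. The genes were taken by name from a list of the pathway's genes, and the rule uses no measured value. The list was chosen with earlier results of these data known, so shares of members set beside all genes only describe this list. All 35 were among the 23420 gene symbols of the count table, and 34 were abundant enough to be tested among 14531 genes; Eno1 was not. The mice were C57BL/6 females, either wild type (WT) or ERalphaKO, a knockout of estrogen receptor alpha written KO here. All 4 groups had their ovaries removed at 6 weeks of age and carried a pellet for 1 week, so every sample was taken at 7 weeks and none came from a mouse with intact ovaries. The pellet was placebo (Plb) or 17β-estradiol (E2, 0.01 mg made for release over 60 days), giving WT placebo (n = 2), WT estradiol (n = 3), KO placebo (n = 3) and KO estradiol (n = 3). The series asks how estradiol acts on gene expression through this receptor. Open points are how the receptor gene was disrupted, in which cells, and whether several animals were pooled in a sample: the sources used here do not give this. Samples are numbered as replicates without a statement that each came from another mouse, so the p-values reflect sample-to-sample spread alone, part or all of which may be technical.

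Cells read oxygen through enzymes that hydroxylate the alpha subunits of the hypoxia-inducible factors, which are then destroyed. When oxygen is low the alpha subunit persists, joins its partner Arnt and binds short DNA motifs with the core ACGTG or GCGTG beside genes for glucose uptake, glycolysis, lactate formation and vessel growth. Cartilage holds few vessels, and its cells draw much of their energy from glycolysis.

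Libraries held 15.7 to 25.5 M counts, so that 3 counts, taken as the detection floor, equal 0.118 to 0.204 CPM (counts per M of the scaled library total). Esr1, the gene of the receptor, stood at 13.4 and 6.6 CPM (WT placebo), 7.89, 6.76 and 6.43 (WT estradiol), 4.86, 3.98 and 2.68 (KO placebo) and 3.4, 2.55 and 3.75 (KO estradiol). Every KO library was below every WT library, and counts per gene do not show which part of the transcript remains. The 14 measured cartilage and hypertrophic markers summed to 14580 to 36503 CPM and the 12 fibrous layer markers to 124179 to 189854 CPM, with none of them at 0 in any library. The 21 skeletal muscle markers summed to 1914 CPM in WT placebo 2, 696 and 1000 CPM in KO placebo 1 and 2, and 20.2 to 336 CPM in the other libraries. WT placebo 2 also gave 16% of its counts to the ribosomal precursor Rn45s, against 1.83% to 3.13% elsewhere.

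Adm, a secreted signal, and Ankrd37, an ankyrin repeat gene, were lower in KO under estradiol. Promoter sequences are printed for both and for the 3 glycolytic members that were lower in KO over both agents. They come from RefSeq on build GRCm38.p6, 250 bases before to 50 bases after the gene start, 5′ to 3′ on the gene's strand; the counts were made on mm9, and no mm9 coordinate is used. The Ldha window (chr7:46845554-46845853, plus strand) is its first of 2. The others are Pgk1 (chrX:106186850-106187149, plus strand), Tpi1 (chr6:124814109-124814408, minus strand), Adm (chr7:110627407-110627706, plus strand) and Ankrd37 (chr8:45999801-46000100, minus strand). Capitals mark ACGTG or GCGTG read on either strand, so that CACGT and CACGC are the same motifs on the other strand.
Ldha: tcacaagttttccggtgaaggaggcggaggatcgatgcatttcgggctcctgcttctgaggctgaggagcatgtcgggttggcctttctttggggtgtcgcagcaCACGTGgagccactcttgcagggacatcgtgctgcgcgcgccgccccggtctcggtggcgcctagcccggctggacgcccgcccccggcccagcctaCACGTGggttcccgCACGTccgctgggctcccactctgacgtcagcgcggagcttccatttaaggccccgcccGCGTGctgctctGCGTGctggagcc
Pgk1: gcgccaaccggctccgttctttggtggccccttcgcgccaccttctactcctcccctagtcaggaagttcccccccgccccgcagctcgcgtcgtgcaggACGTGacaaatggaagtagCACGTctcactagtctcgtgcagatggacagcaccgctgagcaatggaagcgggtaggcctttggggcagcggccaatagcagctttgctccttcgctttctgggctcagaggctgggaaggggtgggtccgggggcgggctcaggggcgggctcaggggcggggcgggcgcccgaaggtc
Tpi1: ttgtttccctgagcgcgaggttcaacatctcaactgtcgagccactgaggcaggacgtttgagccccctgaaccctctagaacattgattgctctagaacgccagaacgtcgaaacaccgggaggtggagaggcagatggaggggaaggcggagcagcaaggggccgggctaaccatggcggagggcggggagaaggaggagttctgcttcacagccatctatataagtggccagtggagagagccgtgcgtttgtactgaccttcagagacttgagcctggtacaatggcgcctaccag
Adm: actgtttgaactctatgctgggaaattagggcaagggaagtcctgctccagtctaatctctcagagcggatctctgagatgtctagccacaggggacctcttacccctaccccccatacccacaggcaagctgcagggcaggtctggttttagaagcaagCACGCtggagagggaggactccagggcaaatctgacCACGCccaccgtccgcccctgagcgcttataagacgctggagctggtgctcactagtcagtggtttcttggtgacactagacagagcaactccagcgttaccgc
Ankrd37: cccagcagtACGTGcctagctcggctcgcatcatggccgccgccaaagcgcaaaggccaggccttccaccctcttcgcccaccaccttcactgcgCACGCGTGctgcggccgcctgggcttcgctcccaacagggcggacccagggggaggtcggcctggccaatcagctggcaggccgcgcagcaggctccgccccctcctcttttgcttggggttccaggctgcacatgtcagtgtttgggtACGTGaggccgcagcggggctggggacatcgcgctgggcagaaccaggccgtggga

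Ldha held 7 matches in this window, Ankrd37 4, Pgk1 2, Adm 2 and Tpi1 0, with CACGTG, which reads the same on both strands, counted on each. The first Vegfa window and the Eno2 window, not printed, also held 0, and the second Vegfa window held 2. Of the 35 members, 32 had at least 1 window, and 29 of these (90.6%) held the motif in at least 1, against 46.7% of all 27025 genes with windows. Per window the shares were 36 of 44 (81.8%) and 43.8% of 32851. The longer CACGTG, which overlaps it, lay in 4 of the 44 windows (9.09%) and in 7.15% of all. Bnip3l, Ndrg1 and Epas1 had no entry. A match describes letters and is not evidence of binding.

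Levels between members can be compared only per length. Per kilobase of exon, averaged over the 11 libraries, Ldha was the most abundant at 299 CPM per kilobase, followed by Aldoa at 164, Tpi1 at 152 and the collagen prolyl hydroxylase gene P4ha2 at 114. Pgk1 stood at 60, Hif1a at 49, Vegfa at 42.1 and Slc2a1 at 11.8. Adm, Car9, Egln3 and Aldoc lay at 3.05, 2.65, 2.47 and 2.28. Eno1, the main enolase gene, had 0 to 2 counts per library; 59% of the 100-base windows of its transcript also occur in another transcript, and its low count cannot be read as low expression. The same share was 67% for Pgk1, 39.7% for Pgam1, 33.5% for Bnip3 and 32.3% for Higd1a, so their counts are uncertain where reads with several matches were dropped or split.

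Most calls among members came between genotypes, and every member that passed there was lower in KO. Averaged over both agents, 4 of 34 members (11.8%) were called at an adjusted p under 0.05 in edgeR, against 7.36% of all genes, and all 4 were lower, against 2.77% of all genes called lower: Adm, Tpi1, Ldha and Pgk1. Under estradiol 3 members were called lower, Adm, Vegfa and Ankrd37 (8.82% of members, against 11.5% of all genes called and 4.2% called lower). Under placebo 0 members were called, and 0.00688% of all genes; 8 of 34 had an unadjusted p under 0.05 (23.5%, against 9.21% of all genes), all 8 lower in KO. DESeq2 also called 0 members under placebo (0.281% of all genes), 5 under estradiol (15.3%) and 7 over both agents (13.3%). The authors' deposited tables hold 3 members with an adjusted p under 0.05 for KO placebo against WT placebo, Tpi1, Pgk1 and Ldha, all lower (0.241% of all genes), and 5 for KO estradiol against WT estradiol, all lower, with Aldoa (log2 fold change -0.25, adjusted p = 0.0243) and Tpi1 (-0.34, adjusted p = 0.0452) beside Adm, Vegfa and Ankrd37 (13% of all genes).

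The median log2 difference of members, KO minus WT, was -0.15 under placebo, -0.17 under estradiol and -0.15 over both agents, beside medians of 0.00 over all genes. The value was negative for 25, 28 and 27 of the 34 members, against 50.6%, 50.2% and 49.9% of all genes. Summed over the 35 genes, levels ran from 4004 to 4485 CPM in WT libraries and from 3383 to 4182 CPM in KO libraries, which overlap. Levels lay below every WT library in every KO library for 2 members over all 11 libraries, Adm and Ldha (2 of 34, against 2.62% of all genes). Within placebo this held for 11 members (against 13.8% of all genes) and within estradiol for 5 (against 16.9% of all genes).

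**Figure D1:**
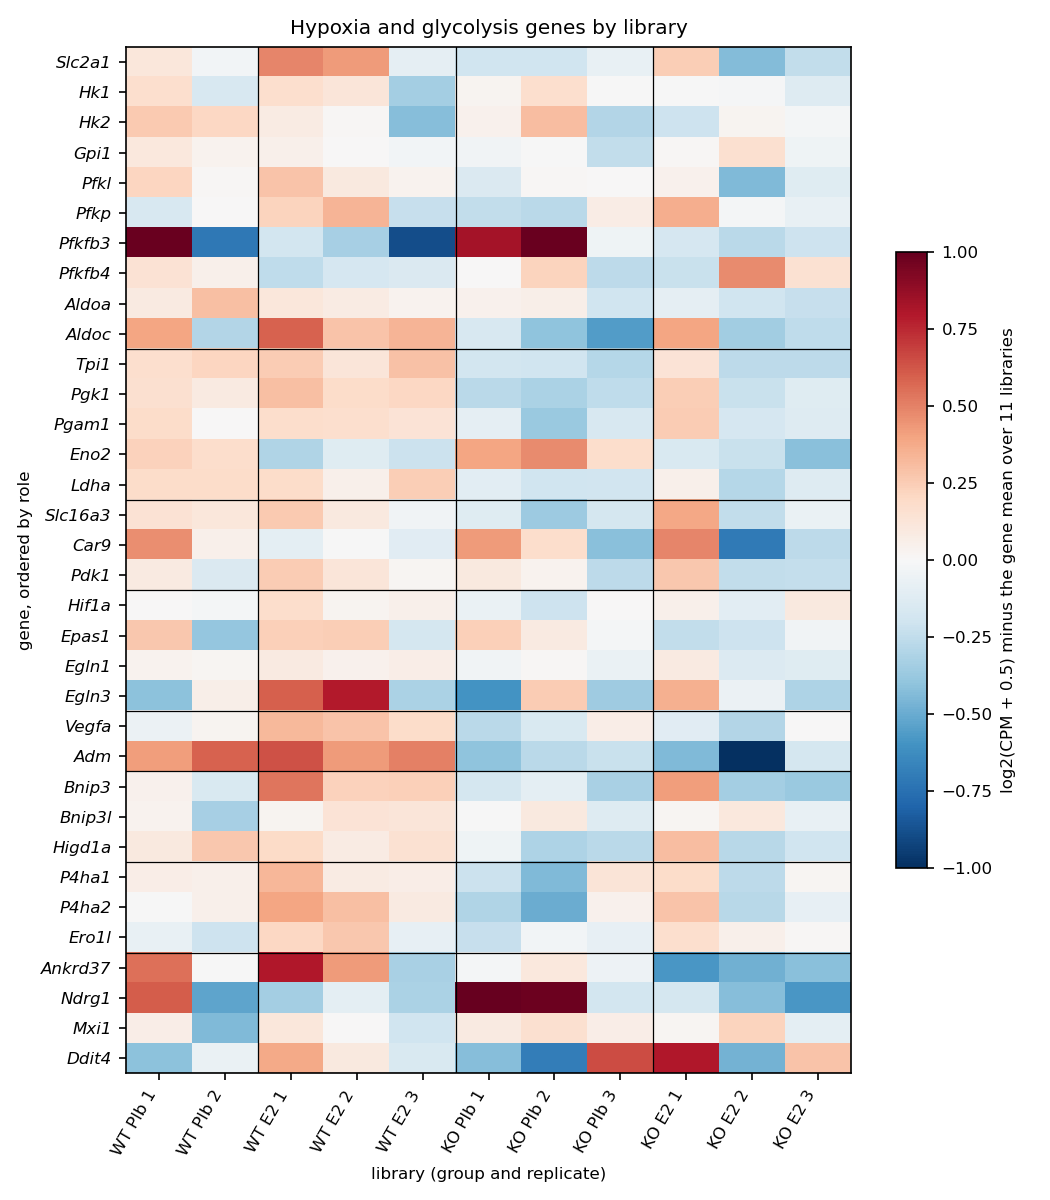
Colour gives log2(CPM + 0.5) of each of the 34 tested members (rows, ordered by role) in each of the 11 libraries (columns) minus the mean of that gene over the libraries, limited to -1 and 1. Adm is low in all 6 KO libraries, and KO estradiol 1 is the highest library of its group for 24 of the 34 genes.

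Glucose enters through the transporter Slc2a1 and is phosphorylated by the hexokinases Hk1 and Hk2; Gpi1, Pfkl, Pfkp and the aldolases carry it on, and Pfkfb3 and Pfkfb4 make and break the sugar phosphate that sets the pace of phosphofructokinase. None of these 10 members passed between the genotypes averaged over agents; 8 of the 10 values were negative, with a median of -0.07. Slc2a1 stood at 41 and 37 CPM (WT placebo), 53.3, 51 and 35.5 (WT estradiol), 32.8, 32.9 and 35.8 (KO placebo) and 45, 27.9 and 31.8 (KO estradiol). Its KO minus WT log2 difference over agents was -0.31 (SE 0.13, adjusted p = 0.164), and the KO estradiol libraries ran from below to above the WT placebo ones. Aldoa gave -0.24 (SE 0.07, adjusted p = 0.056), the smallest adjusted p among these members, and Aldoc -0.49 (SE 0.18, adjusted p = 0.111). Over the 11 libraries Aldoa ranged from 357 to 515 CPM, Aldoc from 4.29 to 10.1, Gpi1 from 159 to 211 and Hk1 from 83 to 118. Pfkl ranged from 48.8 to 81.2 CPM, Pfkp from 48.3 to 75.4 and Hk2 from 16.9 to 28.5. The log2 difference over agents was positive for Pfkfb3 (0.25) and Pfkfb4 (0.13).

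The steps from the triose phosphates to lactate held 3 of the 4 members that fell in KO over both agents. Tpi1, which interconverts the triose phosphates, stood at 298 and 308 CPM (WT placebo), 317, 289 and 325 (WT estradiol), 233, 231 and 218 (KO placebo) and 291, 221 and 221 (KO estradiol). All KO libraries but KO estradiol 1 were below every WT library. WT libraries averaged 307 ± 14.6 CPM (SD, n = 5) and KO libraries 236 ± 27.8 CPM (SD, n = 6), a log2 difference of -0.38 (SE 0.08, edgeR adjusted p = 0.0158). Under placebo alone the difference was -0.42 (SE 0.12, adjusted p = 0.468) and under estradiol -0.34 (SE 0.11, adjusted p = 0.0538), neither passing.

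Ldha, which turns pyruvate into lactate, stood at 640 and 638 CPM (WT placebo), 639, 583 and 668 (WT estradiol), 522, 490 and 493 (KO placebo) and 581, 462 and 513 (KO estradiol). All 6 KO libraries lay below all 5 WT libraries, at 510 ± 40.7 CPM (SD, n = 6) against 634 ± 31.2 CPM (SD, n = 5). The log2 difference was -0.31 (SE 0.07, edgeR adjusted p = 0.0212) over agents, -0.35 (SE 0.10, adjusted p = 0.468) under placebo and -0.28 (SE 0.09, adjusted p = 0.0736) under estradiol. Pgk1, which makes the first ATP of the pathway, stood at 121 and 115 CPM (WT placebo), 133, 123 and 125 (WT estradiol), 89.7, 86.7 and 90.6 (KO placebo) and 128, 92.7 and 99.3 (KO estradiol). The 3 KO placebo libraries were within 86.7 to 90.6 CPM and below every WT library, whereas KO estradiol 1 exceeded 4 of the 5 WT libraries. Its log2 difference over agents was -0.33 (SE 0.08, edgeR adjusted p = 0.0276), lost in 7 of 20 alternatives, against 3 of 20 for Ldha and 2 of 20 for Tpi1. The 7 left out WT placebo 2, WT estradiol 1, KO placebo 1, KO placebo 2, KO estradiol 2, KO estradiol 3, or 3 muscle-rich libraries together, with adjusted p up to 0.213. Pgam1, at 44.5 to 69 CPM, gave -0.23 (SE 0.09, adjusted p = 0.111).

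These calls rested in part on single libraries. Without WT placebo 2, 1 of the 34 members was called over both agents, Adm (2.75% of all genes), and adjusted p was 0.0582 for Tpi1, 0.0653 for Ldha and 0.0636 for Pgk1 while their log2 differences stayed at -0.37, -0.31 and -0.35. Without KO estradiol 1, 10 members were called lower over both agents (6.05% of all genes), and 7 under estradiol (9.43%). The 10 were Adm, Tpi1, Ldha, Pgk1, Aldoc, Bnip3, Higd1a, Pgam1, Slc16a3 and Slc2a1. Without KO placebo 2 the count was 2, Adm and Tpi1 but not Ldha (3.22% of all genes called), and without WT placebo 1 it was 6 (11.5% of all genes called), of which Mxi1 was higher in KO. With the replicate number as a block, 4 members were called under estradiol (12.4% of all genes) and 6 over both agents (10.5%). Without the 3 libraries richest in muscle markers (WT placebo 2, KO placebo 1 and 2), a setting added after seeing the data that leaves 1 sample in each placebo group, assumed to vary like the other groups, edgeR called 0 members over both agents (1.09% of all genes), with 11 at an unadjusted p under 0.05, all lower (16.2% of all genes at that p); DESeq2 was not run on these libraries.

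Markers of some cell types moved with genotype as well. Of the cartilage and hypertrophic markers, 4 of 14 were called lower in KO over agents (median log2 difference -0.59), with summed levels of 21640 to 36503 CPM in WT and 14580 to 23936 CPM in KO libraries. Among osteoclast markers, 5 of 15 were lower, at 9653 to 13769 CPM in WT and 8770 to 10722 CPM in KO. Among macrophage markers 6 of 15 were lower and 1 higher, with overlapping sums of 1345 to 1741 CPM in WT and 1155 to 1882 CPM in KO. Of all genes, 7.36% were called over agents. Skeletal muscle, neutrophil, cell cycle and adipocyte markers gave 0 calls over agents, and fibrous layer and erythroid markers 1 higher call each. All 12 B lineage markers were higher in KO, at 23.4 to 76.1 CPM in WT and 95.2 to 356 CPM in KO, and none was at 0. The part of these shifts in the results on glycolysis was not tested. RNA of the whole tissue was sequenced, so fewer cells of a type and less RNA per cell cannot be told apart.

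**Figure D2:**
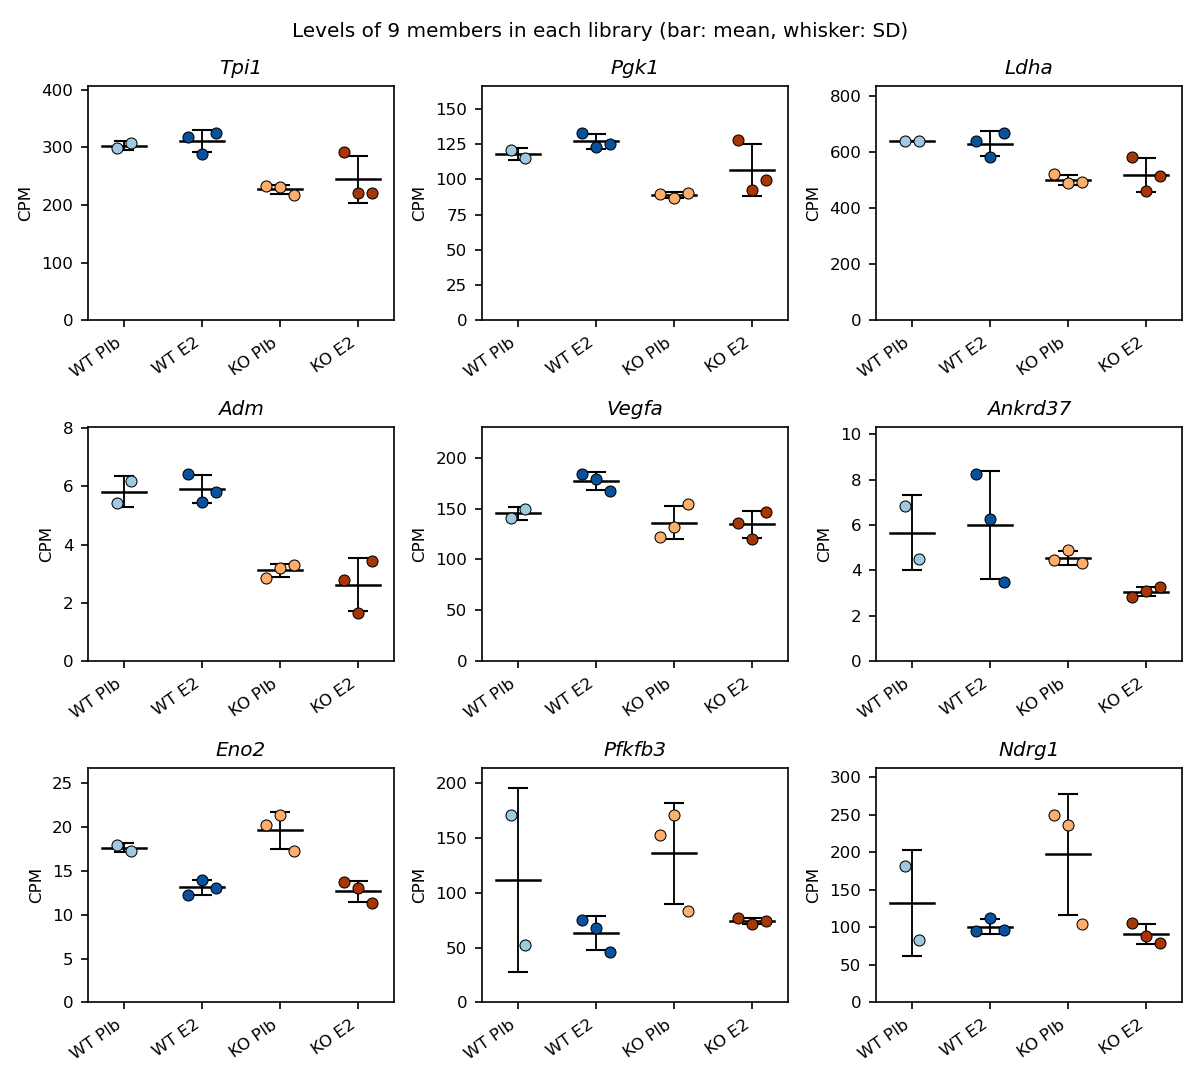
Each panel gives the CPM of 1 member (linear axis from 0) in each library by group, with the group mean as a bar and the SD as a whisker. Adm lies at 1.66 to 3.44 CPM in the 6 KO libraries and at 5.44 to 6.43 CPM in the 5 WT libraries, and Eno2 lies at 11.3 to 14 CPM in the 6 estradiol libraries and at 17.3 to 21.4 CPM in the 5 placebo libraries.

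Adm and Vegfa are the secreted signals of the set; Adm encodes adrenomedullin, a peptide that acts on vessels, and Vegfa the main growth factor for them. Adm was the member with the largest difference between genotypes. It stood at 5.44 and 6.19 CPM (WT placebo), 6.43, 5.47 and 5.81 (WT estradiol), 2.87, 3.19 and 3.31 (KO placebo) and 2.79, 1.66 and 3.44 (KO estradiol), from 28 to 163 counts per library. No KO library reached the lowest WT library. The log2 difference was -1.02 (SE 0.17, edgeR adjusted p = 0.00478) over agents and -1.15 (SE 0.23, adjusted p = 0.00783) under estradiol, a call kept in all 21 alternatives. Under placebo the difference was -0.89 (SE 0.25, adjusted p = 0.468). Without the muscle-rich libraries its adjusted p over agents was 0.126. Endothelial markers summed to 613 to 813 CPM in WT and 579 to 719 CPM in KO libraries, with 3 of 15 lower in KO over agents and 5 under estradiol, and their part in the levels of Adm and Vegfa was not tested.

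Vegfa stood at 141 and 150 CPM (WT placebo), 184, 179 and 167 (WT estradiol), 122, 132 and 154 (KO placebo) and 136, 120 and 147 (KO estradiol). The 3 WT estradiol libraries were above all other libraries, and KO estradiol libraries lay within the range of the placebo libraries apart from the lowest, KO estradiol 2. It fell in KO under estradiol by 0.40 on the log2 scale (SE 0.10, edgeR adjusted p = 0.0261). Under placebo the difference was -0.09 (SE 0.11, adjusted p = 0.791). Estradiol minus placebo was 0.28 in WT (SE 0.11, adjusted p = 0.276) and -0.02 in KO (SE 0.10, adjusted p = 0.948). The difference of these effects was 0.30 (SE 0.15, adjusted p = 0.501) and did not pass. The Vegfa call was lost when WT estradiol 1, WT estradiol 2, KO estradiol 1 or KO estradiol 2 was left out, with adjusted p up to 0.111.

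Ankrd37, a small ankyrin repeat gene known as a target of the hypoxia factor, stood at 6.84 and 4.49 CPM (WT placebo), 8.25, 6.25 and 3.5 (WT estradiol), 4.44, 4.88 and 4.33 (KO placebo) and 2.85, 3.09 and 3.26 (KO estradiol). KO estradiol libraries were below every other library. The KO minus WT difference under estradiol was -0.97 (SE 0.28, edgeR adjusted p = 0.0417). This call was lost in 11 of 21 alternatives, among them the omission of any KO library or of WT estradiol 1 or 2. Over all 21 alternatives, kept calls included, the adjusted p ran from 0.00729 to 0.152. Without KO estradiol 2, Adm alone was called under estradiol (6% of all genes). Ndrg1, Mxi1 and Ddit4, the other members of this group, gave positive log2 differences over agents of 0.17 to 0.22 that did not pass (adjusted p from 0.286 to 0.748); Mxi1 ranged from 35.9 to 57.2 CPM and Ddit4 from 60 to 169 CPM.

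The oxygen-sensing members gave no call between genotypes. Hif1a, the oxygen-labile subunit itself, stood at 267 and 262 CPM (WT placebo), 300, 271 and 276 (WT estradiol), 254, 230 and 267 (KO placebo) and 275, 247 and 285 (KO estradiol), with KO and WT libraries overlapping, and a log2 difference over agents of -0.08 (SE 0.06, adjusted p = 0.471). Its activity is set at the protein, which was not measured. Epas1, the related subunit abundant in vessels, stood at 125 and 79.1 CPM (WT placebo), 122, 123 and 91.5 (WT estradiol), 122, 110 and 102 (KO placebo) and 87.2, 89.7 and 101 (KO estradiol), and gave -0.07 over agents (SE 0.12, adjusted p = 0.727). The prolyl hydroxylase gene Egln3, itself raised by low oxygen, stood at 4.58 and 6.53 CPM (WT placebo), 9.71, 11.2 and 4.94 (WT estradiol), 3.97, 7.55 and 4.8 (KO placebo) and 8.15, 5.99 and 4.96 (KO estradiol). Libraries of 1 group differed there by more than the groups did, and its difference over agents was -0.23 (SE 0.25, adjusted p = 0.582). Egln1, the main oxygen sensor, kept within 86.8 to 102 CPM in all 11 libraries.

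Carbonic anhydrase 9, encoded by Car9, buffers acid outside the cell and is among the most hypoxia-responsive genes in many tissues. Car9 stood at 7.32 and 5.37 CPM (WT placebo), 4.81, 5.15 and 4.74 (WT estradiol), 7.14, 5.91 and 3.74 (KO placebo) and 7.48, 2.97 and 4.24 (KO estradiol). Both WT placebo libraries were above the WT estradiol ones, KO libraries spanned both, and the highest and the lowest library both belonged to KO estradiol. Slc16a3, the lactate exporter, gave -0.21 over agents (SE 0.11, adjusted p = 0.237), and Pdk1, which closes the way of pyruvate into mitochondria, gave -0.10 (SE 0.11, adjusted p = 0.593). The mitochondrial members Bnip3 and Bnip3l, receptors for the removal of mitochondria, and Higd1a gave -0.27, 0.03 and -0.28 (adjusted p of 0.248, 0.847 and 0.104). The hydroxylase subunits P4ha1 and P4ha2, which collagen folding needs, gave -0.19 and -0.27 (adjusted p of 0.275 and 0.174). Over all libraries Bnip3 ranged from 44.9 to 84.4 CPM, Bnip3l from 66.1 to 91.7, Higd1a from 46.4 to 71.3, P4ha1 from 252 to 430 and P4ha2 from 186 to 346. Slc16a3 ranged from 57.6 to 97 CPM and Pdk1 from 55.4 to 80.3.

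**Figure D3:**
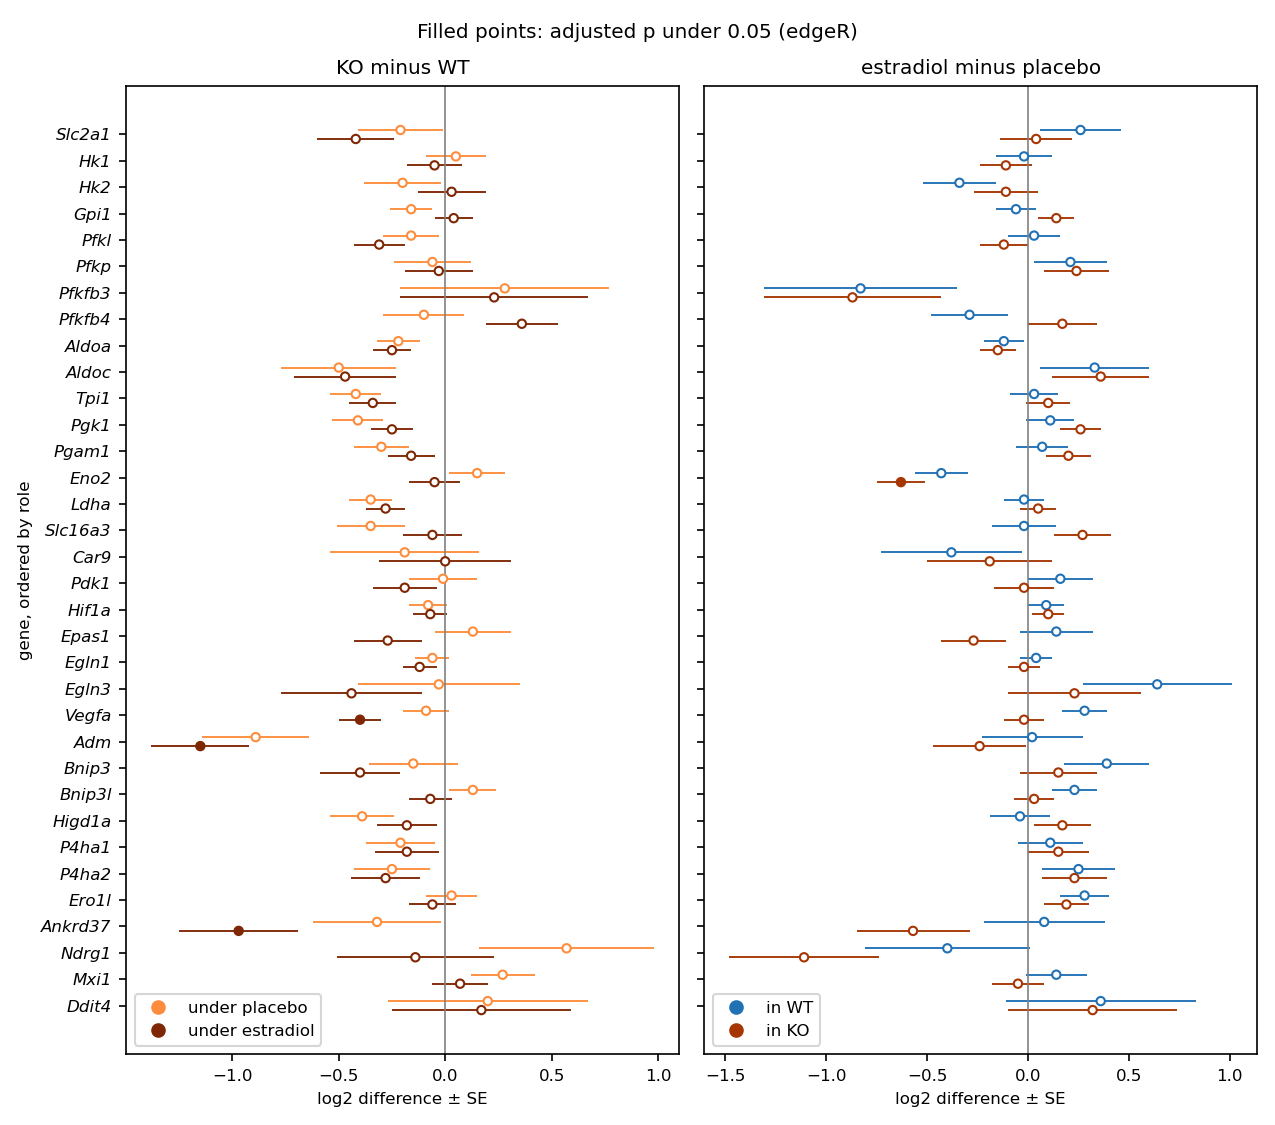
Points are log2 differences of the 34 tested members with ±SE from edgeR, KO minus WT under each agent on the left and estradiol minus placebo in each genotype on the right; filled points passed an adjusted p of 0.05. On the left most points lie below 0, at 25 of 34 genes under placebo and 28 under estradiol, while on the right 1 point is filled, Eno2 in KO.

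Between estradiol and placebo 1 member passed the threshold. Eno2, the second enolase gene, fell in KO by 0.63 on the log2 scale (SE 0.12, edgeR adjusted p = 0.0168), as 1 of 34 members called (2.94%, against 2.73% of all genes called and 0.365% called lower). Eno2 stood at 18 and 17.3 CPM (WT placebo), 12.3, 14 and 13.1 (WT estradiol), 20.2, 21.4 and 17.3 (KO placebo) and 13.7, 13 and 11.3 (KO estradiol). All 6 estradiol libraries were below all 5 placebo libraries, in both genotypes. In WT the difference was -0.43 (SE 0.13, adjusted p = 0.138), and the difference between the effects was 0.21 (SE 0.18, adjusted p = 0.777), so that no difference between genotypes was shown. Averaged over genotypes Eno2 fell by 0.53 on the log2 scale (SE 0.09, edgeR adjusted p = 0.00609), again as the single member called (3.99% of all genes called, 1.89% called lower), and the only member without overlap (2.94%, against 1.24% of all genes lower without overlap). Without the muscle-rich libraries this call of Eno2 was lost (-0.45, adjusted p = 0.111), and 1 other member was called, Pfkfb3 (1.33% of all genes).

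In WT, 0 members were called for estradiol in edgeR (1.55% of all genes) and 0 in DESeq2 (4.51%). An unadjusted edgeR p under 0.05 was reached by 3 members, Eno2, Vegfa and Ero1l (8.82%, against 14% of all genes). The authors' deposited table for WT estradiol against WT placebo has 0 members with an adjusted p under 0.05 (3.34% of all genes), and the authors' deposited table for KO estradiol against KO placebo has 1 of 34, Eno2 (7.52%). For the difference between the effects, 0 members were called in edgeR (1.15% of all genes) and 0 in DESeq2 (3.86%), and 0 had an unadjusted p under 0.05, against 11.6% of all genes. The median of members was 0.07 in WT and 0.05 in KO. Without KO placebo 1, KO placebo 2 or KO estradiol 2, edgeR called 0 members in KO, so that the Eno2 call was lost; 0.726%, 0.961% and 0.872% of all genes were called. In these fits 1, 2 and 5 members had an unadjusted p under 0.05, as did 12%, 11.8% and 11.5% of all genes. With the replicate block Eno2 was called in KO (4.33% of all genes called). Without the muscle-rich libraries edgeR called 0 members in KO, with 2 at an unadjusted p under 0.05 (0.00679% of all genes called, 8.94% at that p), and 2 in WT, Ndrg1 and Pfkfb3 (2.02%).

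Pfkfb3 and Ndrg1 spread widely within the placebo groups; Pfkfb3 is given in full after its values were seen. Pfkfb3 stood at 171 and 52.2 CPM (WT placebo), 75.5, 68 and 46.2 (WT estradiol), 153, 171 and 83.3 (KO placebo) and 76.5, 71 and 74.5 (KO estradiol), and Ndrg1, a stress-responsive gene raised by low oxygen, at 182 and 82.7 CPM (WT placebo), 94.5, 112 and 95.8 (WT estradiol), 250, 237 and 105 (KO placebo) and 106, 88.9 and 79.5 (KO estradiol). For both, WT placebo 1, KO placebo 1 and KO placebo 2 were above all other libraries, and WT placebo 2 and KO placebo 3 lay near the estradiol libraries. Estradiol minus placebo was -0.87 for Pfkfb3 in KO (SE 0.44, adjusted p = 0.37) and -0.83 in WT (SE 0.48, adjusted p = 0.522). For Ndrg1 it was -1.11 in KO (SE 0.37, adjusted p = 0.179) and -0.40 in WT (SE 0.41, adjusted p = 0.757). Summed muscle markers were 56.6, 696 and 1000 CPM in WT placebo 1, KO placebo 1 and KO placebo 2, and 1914 CPM in WT placebo 2; their part in the spread was not tested.

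A few further members had the smallest p-values without passing. Ero1l, an oxidase of protein folding, stood at 28.7 and 26.1 CPM (WT placebo), 35.1, 36.6 and 28.5 (WT estradiol), 25.7, 29.7 and 28.5 (KO placebo) and 34.1, 31.4 and 30.5 (KO estradiol), and its estradiol difference over genotypes was 0.24 (SE 0.08, adjusted p = 0.123). Pfkfb4 stood at 19.2 and 18 CPM (WT placebo), 14.5, 15.4 and 15.7 (WT estradiol), 17.4, 20.3 and 14.4 (KO placebo) and 14.8, 24.3 and 19.4 (KO estradiol), and the difference between its estradiol effects was -0.46 (SE 0.25, adjusted p = 0.561). Epas1 gave 0.40 for the same quantity (SE 0.24, adjusted p = 0.627), which was -0.02 without the muscle-rich libraries. Pgk1 in KO gave 0.26 for estradiol minus placebo (SE 0.10, adjusted p = 0.227), with all 3 KO estradiol libraries above all 3 KO placebo libraries.

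In 3 of the 4 groups 1 library was the highest for most members. KO estradiol 1 was the highest of its 3 libraries for 24 of 34 members (70.6%, against 32% of all genes), and WT estradiol 1 for 23 (67.6%, against 28.6%). WT placebo 1 was the higher of its 2 libraries for 25 members (73.5%, against 50.5% of all genes), and WT estradiol 3 the lowest of its group for 21 (61.8%, against 40.6%). In KO placebo each library was the highest for 9 to 15 members. In KO estradiol 1 the summed members reached 4182 CPM, beside 3383 and 3609 CPM in the other libraries of that group. Its cartilage and hypertrophic markers were also the highest of the group, at 23936 CPM beside 14580 and 20398 CPM, and its neutrophil markers the lowest, at 1305 CPM beside 4718 and 1633 CPM. Their part in the member levels was not tested.

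Of the 22 other glycolysis genes, 20 were tested. Between KO and WT under estradiol 3 were called higher in KO, Slc16a1, Slc2a3 and Hk3, and 1 lower, Pdk3. The share called was 20%, against 11.5% of all genes. Of the 20 values 7 were positive and 13 negative, with a median of -0.13. Slc16a1, which carries lactate and pyruvate into and out of cells, stood at 29.5 and 24.8 CPM (WT placebo), 20.6, 19.2 and 18.3 (WT estradiol), 29.5, 26.8 and 20.9 (KO placebo) and 38.9, 44.6 and 37.7 (KO estradiol). The 3 KO estradiol libraries were above all others. Estradiol minus placebo was 0.65 in KO (SE 0.13, edgeR adjusted p = 0.0221) and -0.49 in WT (SE 0.14, adjusted p = 0.128), and the difference of the effects passed, at -1.14 (SE 0.19, edgeR adjusted p = 0.0138), the only one of these 20 genes to do so. KO exceeded WT under estradiol by 1.06 (SE 0.13, adjusted p = 0.000365) and over agents by 0.49 (SE 0.10, adjusted p = 0.0127). Slc16a1 lost the call on the difference without WT placebo 1 (adjusted p = 0.0541), the rise in KO without KO placebo 2, KO placebo 3 or KO estradiol 2 (adjusted p up to 0.112), and the call over agents without WT placebo 2.

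Slc2a3, a glucose transporter with high affinity, stood at 18.2 and 16.5 CPM (WT placebo), 14.1, 13.7 and 13.4 (WT estradiol), 17.3, 22.1 and 18.7 (KO placebo) and 22.3, 39.5 and 25.1 (KO estradiol). KO exceeded WT under estradiol by 1.08 (SE 0.18, edgeR adjusted p = 0.00336) and over agents by 0.62 (SE 0.14, adjusted p = 0.0235). Hk3, a hexokinase abundant in myeloid blood cells, stood at 7.05 and 9.73 CPM (WT placebo), 5.48, 5.89 and 6.1 (WT estradiol), 3.93, 7.13 and 4.33 (KO placebo) and 11.8, 39.3 and 18.8 (KO estradiol). It rose with estradiol in KO by 2.19 (SE 0.41, edgeR adjusted p = 0.028) and was 4-fold as high in KO as in WT under estradiol (adjusted p = 0.0134), a call lost without WT estradiol 1 or WT estradiol 3 (adjusted p up to 0.0573). The rise of Hk3 in KO was lost in 6 of 21 alternatives, among them without KO placebo 1, KO placebo 3, WT estradiol 1 or WT estradiol 2 (adjusted p up to 0.301), and Slc2a3 lost its call over agents without WT placebo 2, KO placebo 2 or WT estradiol 3 (adjusted p up to 0.228). Summed neutrophil markers ran beside them, at 1305, 4718 and 1633 CPM in KO estradiol and 1.61 to 763 CPM elsewhere, and KO estradiol 2 was the highest library for Slc16a1, Slc2a3, Hk3 and these markers alike. Of 14 tested neutrophil markers, 10 were called higher in KO under estradiol, as were 8 of 15 cell cycle markers and 12 of 12 B lineage markers. The part of those cells in the 3 genes was not tested.

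**Figure D4:**
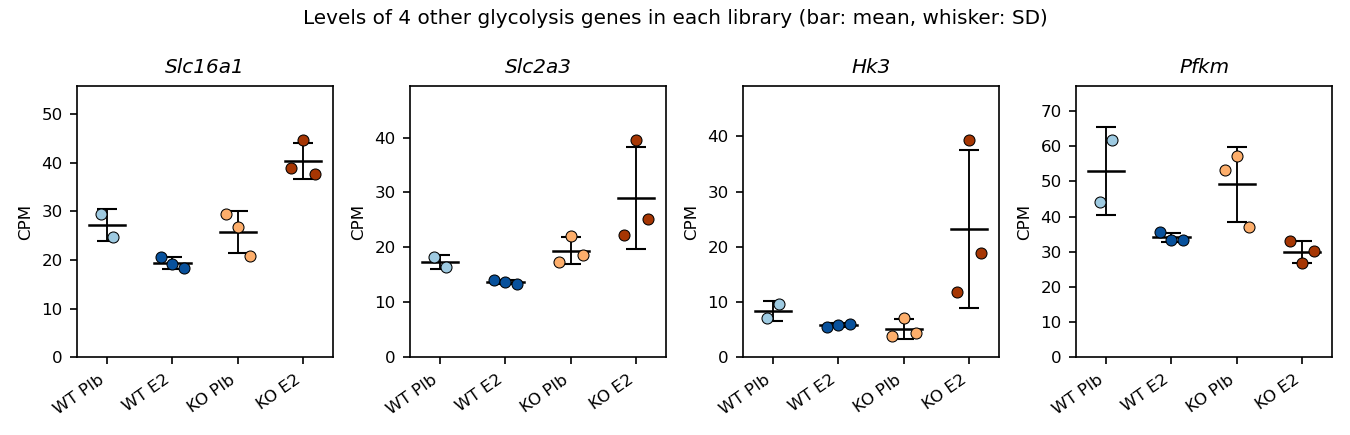
Each panel gives the CPM of 1 glycolysis gene outside the set of 35 (linear axis from 0) in each library by group, with the group mean as a bar and the SD as a whisker. The KO estradiol libraries are the highest for Slc16a1 (37.7 to 44.6 CPM), Slc2a3 (22.3 to 39.5) and Hk3 (11.8 to 39.3), and Pfkm is lower in all 6 estradiol libraries than in any placebo library.

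Pfkm, the muscle form of phosphofructokinase, stood at 44.1 and 61.7 CPM (WT placebo), 35.6, 33.4 and 33.3 (WT estradiol), 53.3, 57.1 and 37.1 (KO placebo) and 33, 26.8 and 30.1 (KO estradiol). It fell with estradiol by 0.67 on the log2 scale over genotypes (SE 0.12, edgeR adjusted p = 0.0111) and by 0.71 in KO (SE 0.16, adjusted p = 0.0431), and the placebo libraries richest in muscle markers were its 3 highest. Without those libraries the value over genotypes was -0.34 (adjusted p = 0.149), and the call in KO was lost in 10 of 21 alternatives. The pyruvate dehydrogenase kinases split: Pdk4 was higher in KO over agents by 0.60 (SE 0.15, adjusted p = 0.0369) and Pdk3 lower at -0.22 (SE 0.06, adjusted p = 0.0393), calls lost in 9 and 11 of 20 alternatives, without any KO placebo library or WT placebo 2 among them. Under estradiol Pdk3 was lower at -0.29 (SE 0.08, adjusted p = 0.0268), a call lost in 7 of 21 alternatives, among them without any KO estradiol library or WT estradiol 1 or 2 (adjusted p up to 0.0935). In all, the other glycolysis genes gave 0, 3 and 1 calls for estradiol in WT, in KO and for the difference. These are 0%, 15% and 5% of the 20 tested, against 1.55%, 2.73% and 1.15% of all genes. For KO against WT they gave 0, 4 and 4 calls under placebo, under estradiol and over agents. The shares were 0%, 20% and 20%, against 0.00688%, 11.5% and 7.36% of all genes.

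Of the 34 other targets of the hypoxia factors, 33 were tested, and calls were few and in both directions. For estradiol, 6.06% were called in WT and 6.06% over genotypes, against 1.55% and 3.99% of all genes. For KO against WT, 6.06% were called under estradiol and 6.06% over agents, against 11.5% and 7.36% of all genes. Lox, which cross-links collagen, rose with estradiol in WT by 0.82 (SE 0.12, edgeR adjusted p = 0.00417), from 447 and 527 CPM to 875, 878 and 821 CPM, and over genotypes by 0.51 (SE 0.08, adjusted p = 0.00516). Its relative Loxl4 rose over genotypes by 0.46 (SE 0.11, adjusted p = 0.0455), and Trf, which encodes transferrin, fell in WT by 0.56 on the log2 scale (SE 0.12, edgeR adjusted p = 0.0415); these calls were lost in 12 of 20 and 11 of 21 alternatives. Between genotypes over agents, Ccng2 was higher in KO by 0.38 (SE 0.08, adjusted p = 0.0212) and Mif, a cytokine, lower at -0.38 (SE 0.08, adjusted p = 0.0212). Under estradiol Ccng2 was again higher, by 0.40 (SE 0.11, adjusted p = 0.0385), and Insig2 lower at -0.30 (SE 0.06, adjusted p = 0.0107). Ccng2 and Mif lost their calls over agents without WT placebo 2, Mif also without KO placebo 2, Lox its call in WT without WT placebo 1, and Insig2 its call without KO estradiol 2; the call of Ccng2 under estradiol was lost in 9 of 21 alternatives. Of the 10 tested genes of the oxygen-sensing machinery, among them Vhl, Arnt and Hif1an, 0 were called in any of the 7 comparisons. In each of the 3 genotype comparisons 2 of them (20%) had an unadjusted edgeR p under 0.05. The share of all genes at that p was 9.21% under placebo, 26.9% under estradiol and 27.2% over agents.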

How the data were processed

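RNA selected for poly-A tails was sequenced from 11 libraries of condylar fibrocartilage in 4 groups. Reads were demultiplexed with bcl2fastq 2.17 and aligned with TopHat to mm9, per the submitters' processing notes; the sources used here name no counting program, annotation or strand setting. The deposited table holds whole-number counts for 23420 gene symbols. The authors also deposited comparisons of 2 groups with a mean signal per gene, a log2 fold change with its standard error, a test score, and p-values raw and adjusted; of these the log2 fold changes and adjusted p-values are quoted where named.

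Counts were tested with edgeR 4.0.16 in R 4.3.3 (TMM scaling, filterByExpr with a minimum count of 10 and a minimum total of 15, robust quasi-likelihood fit of all 4 groups, 7 residual degrees of freedom), which kept 14531 genes. Adjusted p-values are Benjamini-Hochberg over these genes for each of 7 comparisons, called under 0.05, and all tests are two-sided. The SE was derived from the log2 difference and its F statistic, as their ratio with F under a square root. The steps were tested on simulated data, with changes placed only in genes above a set mean level. The means of Adm and Ankrd37, 4.24 and 4.74 CPM, lay below that level. CPM uses TMM-scaled totals. Levels per kilobase use exon lengths from the reference annotation, which is of another build than the counts.

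The members and gene lists were chosen with earlier results of these data known. Values in every sample are given for members called in a comparison, for the 3 with the smallest p in each, and for Slc2a1, Pgk1, Ldha, Vegfa, Egln3, Car9, Ankrd37, Hif1a and Epas1; genes of other lists are named where called. Same-numbered KO placebo and KO estradiol libraries deviated together (r of 0.14 to 0.39 over 3 pairs). For the other pairs of groups not every r was over 0.1. So few pairs cannot show whether the replicate numbers pair those groups. The labels state no pairing, and the main fit assumed none. Alternatives were other scalings and filters, no robust estimation, a replicate block, DESeq2 1.42.0 and limma 3.58.1 (voom). Further ones were only the groups compared, each library left out, and WT placebo 2, KO placebo 1 and KO placebo 2 left out together. That last setting was added after seeing the data. A looser threshold, an adjusted p under 0.1, was applied only to the counts of members called.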

Additional observations from a re-analysis of the deposited data

Results flagged for a closer look

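For 3 of the 97 pathway genes watched (34 members and 63 others), estradiol moved the WT and the KO libraries apart; none is a member, and groups of 2 or 3 libraries were too small to look for single outlying samples. For Slc16a1 the estradiol effect in WT minus that in KO was -1.14 on the log2 scale and passed in edgeR (adjusted p = 0.0138), though not without WT placebo 1 (adjusted p = 0.0541). For Hk3 the same quantity was -2.71 (adjusted p = 0.0709) and for Slc2a3 -0.92 (adjusted p = 0.146). Every estradiol library of these 2 genes was below the placebo libraries in WT and above them in KO, but the test of the difference did not pass.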

How the results depend on the processing

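Counts of members called are given against the reported ones. Leaving out 1 library at a time gave 0 to 0 for estradiol in WT, 0 to 2 in KO, 0 to 0 for the difference of these effects, 0 to 0 for KO against WT under placebo, 1 to 7 under estradiol, 1 to 10 over agents, and 1 to 2 for estradiol over genotypes. The shares of all genes called in the same fits were 0.782% to 1.97%, 0.726% to 3.48%, 0.47% to 1.86%, 0.00673% to 0.336%, 6% to 12.5%, 2.75% to 11.5% and 2.02% to 5.26%. DESeq2 gave 5 under estradiol and 7 over agents (15.3% and 13.3% of all genes). An adjusted p under 0.1 in edgeR gave the same counts of members, and the share of all genes at that threshold is not given here. Without WT placebo 2, KO placebo 1 and KO placebo 2, chosen after seeing the data, the counts were 2 for estradiol in WT, 0 in KO and 0 for KO against WT over agents. With the replicate block the counts were 1 for estradiol in KO (4.33% of all genes called), 4 for KO against WT under estradiol (12.4%) and 6 over agents (10.5%); the calls of Trf and Loxl4 were lost under it. Among values that were not called, the sign turned without WT placebo 1 (first value; the second is without WT placebo 2) for Ndrg1 (0.28, -0.85) and Pfkfb3 (0.27, -1.44) for estradiol in WT, Ankrd37 under placebo (0.02, -0.59) and Epas1 over agents (0.10, -0.22), and for the effect differences of Eno2 (-0.01) and Epas1 (-0.02) and Vegfa under placebo (0.13) without those 3 libraries. The cause was not tested. The median over members, KO minus WT, stayed negative in all alternatives, between -0.31 and -0.07 under placebo, -0.29 and -0.09 under estradiol, and -0.26 and -0.1 over agents. Adm (28 to 163 counts per library) and Ankrd37 (51 to 209) carry the widest counting error among called members.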
